A study of Homo sapiens with 12 samples.

Results

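The replication-dependent histone genes of CCRF-CEM cells were examined by class, as 72 of the 44147 features read in 12 RNA-seq libraries. Members were the features named as histone genes of the classes H1, H2A, H2B, H3 or H4 in the clusters HIST1 to HIST4, without the 12 marked as pseudogenes by PS in their name and with at least 1 exonic read in every library. Of 88 such names, 4 others were not read in every library. The members comprised 6 H1, 15 H2A, 22 H2B, 14 H3 and 15 H4 genes, with 53 in HIST1 on chromosome 6, 16 in HIST2 and 2 in HIST3 on chromosome 1, and HIST4H4 on chromosome 12. By the GENCODE 29 annotation 66 were protein coding, and the other 6, HIST2H2BA, HIST2H2BB, HIST2H2BC, HIST2H2BD, HIST2H3DP1 and HIST3H2BA, were pseudogenes whose names lack PS.

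Histones H2A, H2B, H3 and H4 form the core of the nucleosome, and the linker histone H1 binds the DNA that enters and leaves it. The bulk of these proteins is made in S phase from clustered genes without introns, whose mRNAs end in a stem-loop bound by SLBP instead of a poly(A) tail. The coactivator NPAT drives transcription of the clusters at histone locus bodies, and histone mRNA is degraded when DNA synthesis stops. Prexasertib inhibits the checkpoint kinase CHK1, which restrains origin firing and protects stalled forks, and SLFN11 is recruited to stressed forks, where it blocks replication.

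CCRF-CEM is an established T lymphoblast leukemia line. The 4 groups were parent cells labelled prexasertib (100 nM for 6 h), parent cells labelled DMSO, cells with SLFN11 knocked out labelled prexasertib (the same dose and time) and knockout cells labelled DMSO, with 3 libraries each. The labels give no treatment time for DMSO, and do not say whether the knockout line is 1 clone. Nor do they say that the 3 libraries of a group were grown apart, and p-values then cover only the spread among these libraries, possibly a technical one. Labels and library names conflict: in 12 of 12 records the title gives a library name that belongs to a file under the opposite treatment. Groups here follow the record that holds a file, hence "labelled" before each treatment. Should the library names be the right ones, treatment differences and the interaction turn their sign and the comparisons between lines change places.

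Libraries held 47887791 to 77548202 exonic reads. Introns held 24.5 to 31.1% of gene reads, with the highest share in parent labelled prexasertib replicate 1, which also differed most from its group. SLFN11 averaged 88.4 CPM (normalised read counts on TMM-scaled libraries) in knockout labelled prexasertib against 117 CPM in parent labelled prexasertib, and 67.2 CPM in knockout labelled DMSO against 95.6 CPM in parent labelled DMSO. The log2 fold changes were -0.41 and -0.51 by edgeR (adjusted p = 5.5e-07 and 6.0e-09), so its RNA was still read in the knockout line. All 14 T lymphoblast markers had at least 10 reads in every library. They summed to 1558 to 1623 CPM in parent labelled prexasertib against 1401 to 1487 CPM in parent labelled DMSO, and to 1757 to 1801 CPM in knockout labelled prexasertib against 1794 to 1824 CPM in knockout labelled DMSO. The 5 B cell markers summed to 25.1 to 43.7 CPM. The 4 lists of myeloid, erythroid, fibroblast and epithelial markers summed to at most 11.95 CPM in any library, and epithelial ones stood at 10.4 to 11.95 CPM in knockout against 2.24 to 3.63 CPM in parent libraries. Their part in the results was not tested.

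The sequences around the histone genes show what members share beyond their names, and those below belong to genes that open or close the range of responses described further on. Of the 72 members, 56 matched a promoter in RefSeq (GRCh38.p14, 250 bases before to 50 after the start). Short motifs known from histone promoters were searched on both strands, where matches may overlap. CCAAT, the box bound by NF-Y, occurred in 82.1% of the members' promoters against 35.7% of 27305 promoters in the table. It was present in all 6 H1, 14 H2A, 12 H2B and 11 H3 promoters but in 3 of 13 H4 promoters. TATAAA occurred in 66.1% against 12% of all promoters. The octamer ATTTGCAT, known as a site of POU2F1 in H2B promoters, occurred in 33.9% against 1.8%. Its carriers included 10 of 14 H2A and 8 of 12 H2B promoters. Windows of neighbouring members can overlap, so motif counts here are counts of promoters and not of separate sites. HIST1H2AD and HIST1H3D have the same window, and HIST1H2AG and HIST1H2BJ hold the same octamer, read on opposite strands. AAACACA, the H1 box, occurred in 6 of 6 H1 promoters and in 5.76% of all promoters. In the following 150 bases before the start, capitals mark these motifs on either strand. The first belongs to an H2A gene with one of the largest differences, the next to the H1 gene with the smallest, the third to the H4 gene with the largest, and the last to an H2B gene that diverges from the H2A gene HIST1H2AG.
HIST2H2AA3 (chr1:149842751-149842900, minus strand): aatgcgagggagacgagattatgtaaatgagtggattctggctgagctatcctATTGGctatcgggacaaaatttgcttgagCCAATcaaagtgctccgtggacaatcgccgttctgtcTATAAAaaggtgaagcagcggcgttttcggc
HIST1H1E (chr6:26156179-26156328, plus strand): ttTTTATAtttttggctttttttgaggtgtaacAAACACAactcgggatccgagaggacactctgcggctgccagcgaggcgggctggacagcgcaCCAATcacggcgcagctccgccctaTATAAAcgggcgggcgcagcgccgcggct
HIST1H4F (chr6:26240243-26240392, plus strand): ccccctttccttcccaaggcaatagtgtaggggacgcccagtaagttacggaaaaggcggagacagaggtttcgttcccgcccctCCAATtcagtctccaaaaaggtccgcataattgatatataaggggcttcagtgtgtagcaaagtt
HIST1H2BJ (chr6:27132796-27132945, minus strand): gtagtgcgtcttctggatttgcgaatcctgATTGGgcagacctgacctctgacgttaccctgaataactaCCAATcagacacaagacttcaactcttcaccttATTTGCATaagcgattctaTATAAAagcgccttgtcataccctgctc

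The 3′ stem-loop was looked for in the GENCODE 29 transcripts of the members. The exact capitals of the first site below were found in transcripts of 17 members, 1 of them the pseudogene HIST3H2BA. Of 19702 coding genes 18 held them (0.0914%), 16 of which were members. Any stem of 6 paired bases around a loop of 4 in this family was found in 29 members. A member without a match only lacks these letters in its annotated transcripts. Capitals mark the stem and loop in the following sites, which show the most frequent form, that of an H2B gene with another last loop base, and that of an H4 gene with other stem bases.
HIST2H2AA3: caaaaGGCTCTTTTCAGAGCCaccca
HIST1H2BC: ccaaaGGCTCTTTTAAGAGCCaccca
HIST4H4: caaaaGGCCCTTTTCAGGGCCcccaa

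Histone genes had similar summed levels in 3 of the 4 groups and a level about 1.9 times as high in the other, the parent libraries labelled DMSO. They took 5.18, 5.25 and 5.45% of exonic reads in parent libraries labelled prexasertib, against 9.02, 9.90 and 9.31% in parent libraries labelled DMSO. In knockout cells they took 5.21, 5.43 and 4.96% in libraries labelled prexasertib and 5.16, 5.28 and 5.47% in those labelled DMSO. Summed over the 72 members this came to 52678 ± 2627 CPM in parent labelled prexasertib against 98333 ± 6114 CPM in parent labelled DMSO, and to 50877 ± 2412 CPM in knockout labelled prexasertib against 52311 ± 1778 CPM in knockout labelled DMSO (SD, n = 3 each). The parent groups lay far apart, while the ranges of the knockout groups overlapped. A bulk level cannot tell fewer cells in S phase from less histone mRNA per cell.

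**Figure D1:**
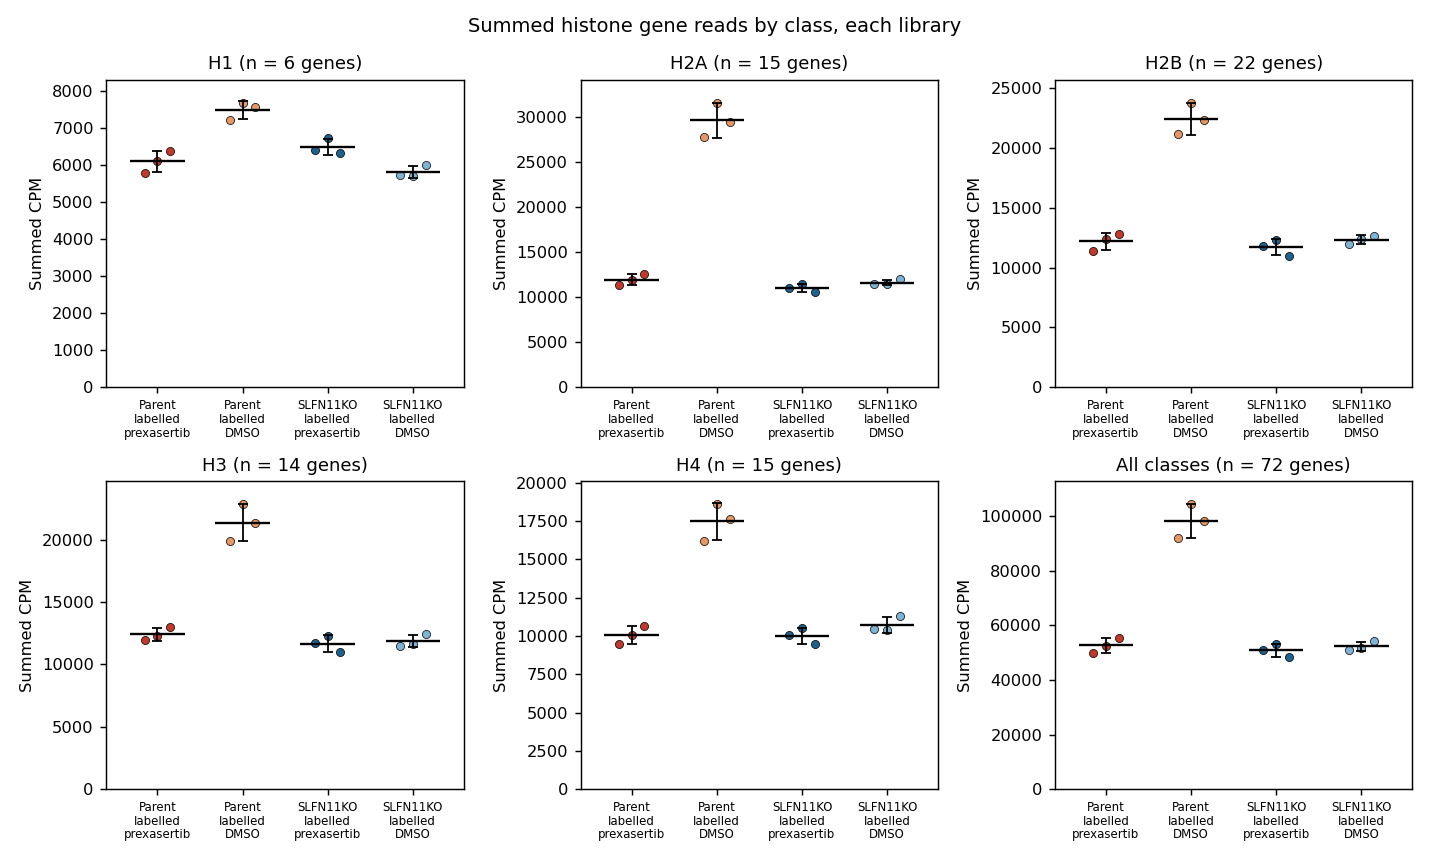
Summed CPM of the histone genes of each class and of all classes in the 12 libraries. Points are libraries, lines with bars are the mean ± SD of 3 libraries. In every panel the parent libraries labelled DMSO stand above the other 9 libraries, with the smallest gap in H1.

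In parent cells, 66 of the 72 members were lower in labelled prexasertib than in labelled DMSO and none was higher, by edgeR's quasi-likelihood test (p of at most 0.05 after Benjamini-Hochberg adjustment over 23045 genes), where 18.2% of all tested genes were called lower and 18.2% higher. At an unadjusted p of at most 0.05, and likewise by DESeq2, 67 were lower and 0 higher. By the library names in the titles the same 66 would be higher in prexasertib. All 72 members passed the filter on low counts. The median log2 fold change of the members was -0.86, against 0.04 over all tested genes, and single members ran from -3.92 to 0.02. The groups did not overlap for 65 of the 72 members, against 43.3% of all tested genes. The 6 members that were not called were HIST1H1E, the sparsely read HIST1H4G, HIST3H2BA and HIST3H2BB, and the pseudogenes HIST2H2BA and HIST2H2BC, whose replicates spread widely, with SEs of 0.35 and 0.67. By the authors' TPM, without rescaling between libraries, the median was -0.68.

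Class medians were lowest for H2A and nearest to 0 for H1, and the difference between classes was not tested. The median log2 fold change in parent cells was -1.11 over the H2A genes (15 of 15 lower), -0.88 over H4 (14 of 15), -0.83 over H2B (18 of 22), -0.75 over H3 (14 of 14) and -0.46 over H1 (5 of 6). In summed CPM, H2A genes came to 11941 ± 580 in parent labelled prexasertib against 29598 ± 1901 in parent labelled DMSO, a ratio of 0.403. The near-identical pair HIST2H2AA3 and HIST2H2AA4 weighs heavily on this sum. In parent labelled DMSO, HIST2H2AA3 had 5583, 6480 and 5741 CPM and HIST2H2AA4 5507, 6213 and 5819 CPM. In parent labelled prexasertib they had 1584, 1585 and 1648 CPM, and 1569.9, 1568 and 1647 CPM. The H2A sum without this pair was not computed. The ratio of summed CPM was 0.544 for H2B, 0.575 for H4, 0.581 for H3 and 0.814 for H1 (6097 ± 291 CPM in parent labelled prexasertib against 7493 ± 238 CPM in parent labelled DMSO, SD, n = 3 each). Overlapping genes of different classes may count the same reads in these sums, as described further on. The make-up of histone reads differed as well. H1 genes held 11.6 ± 0.04% of histone CPM in parent labelled prexasertib against 7.63 ± 0.25% in parent labelled DMSO, and H2A genes held 22.7 ± 0.12% in parent labelled prexasertib against 30.1 ± 0.15% in parent labelled DMSO (SD, n = 3 each). The HIST2H2AA3 and HIST2H2AA4 pair is part of this H2A share, which was not computed without it. The shares of H2B, H3 and H4 differed less, at 23.1, 23.6 and 19.1% in parent labelled prexasertib against 22.8, 21.7 and 17.8% in parent labelled DMSO. No library of one parent group reached the other group's range in H1 or H2A.

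**Figure D2:**
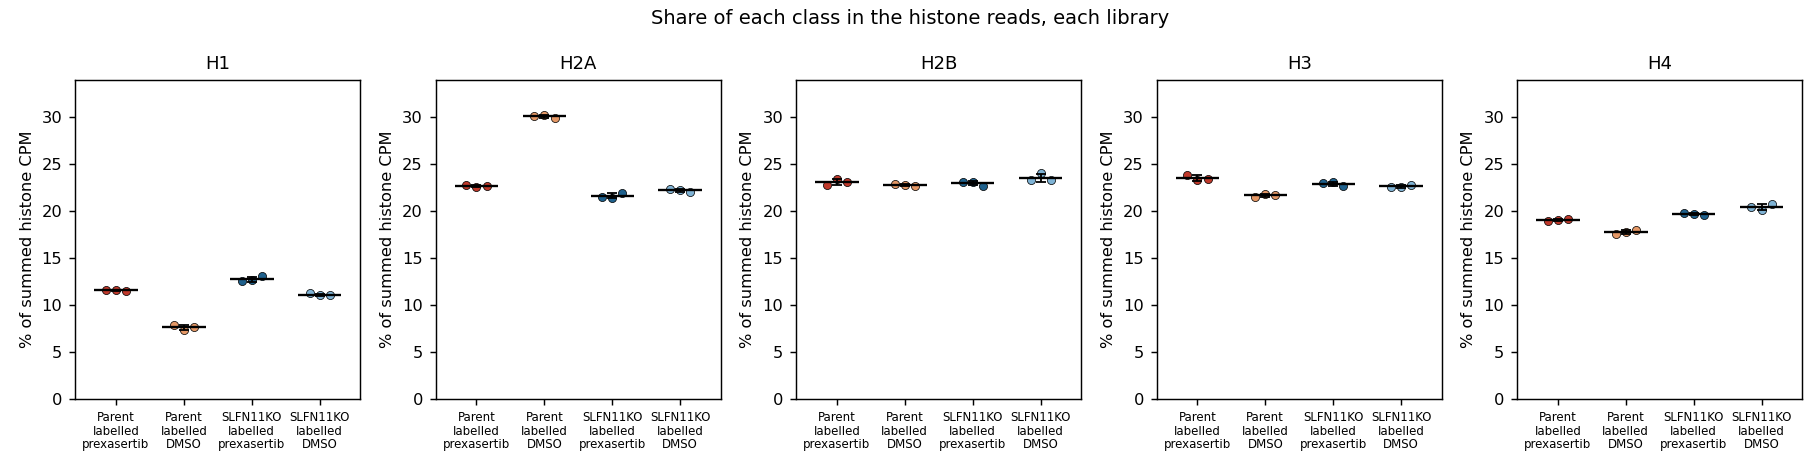
Percent of summed histone CPM held by each class in the 12 libraries. Points are libraries, lines with bars are the mean ± SD of 3 libraries. Parent libraries labelled DMSO hold the lowest H1 share (7.36 to 7.83%) and the highest H2A share (29.9 to 30.2%). The H2A share includes the near-identical pair HIST2H2AA3 and HIST2H2AA4.

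Among linker histones, 3 of the 4 abundant H1 genes differed little or did not pass. HIST1H1E (hg19 chromosome 6, 26156559 to 26157343) had 1640.3, 1669 and 1781 CPM in parent libraries labelled prexasertib, against 1635, 1708 and 1670.5 CPM in those labelled DMSO, a log2 fold change of 0.02 (SE 0.05, edgeR adjusted p = 0.79). Its groups overlapped. HIST1H1D had 1107, 1158 and 1216 CPM in parent labelled prexasertib against 1288, 1362 and 1369.6 CPM in parent labelled DMSO, a log2 fold change of -0.21 (SE 0.05, edgeR adjusted p = 0.0023). HIST1H1B had 1677, 1715 and 1754 CPM in parent labelled prexasertib against 1981, 2111 and 2078 CPM in parent labelled DMSO, a log2 fold change of -0.26 (SE 0.05, edgeR adjusted p = 0.0002). For HIST1H1D and HIST1H1B each labelled prexasertib library lay below each labelled DMSO library, by a narrow margin beside that of most core histones. HIST1H1C differed most of the 4, with 1366, 1568 and 1620.0 CPM in parent labelled prexasertib against 2295, 2478 and 2419.6 CPM in parent labelled DMSO and a log2 fold change of -0.66 (SE 0.06, edgeR adjusted p = 1.9e-09).

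The other H1 genes had far lower levels and differed strongly. HIST1H1T, the testis linker histone gene, had 5.17, 4.82 and 5.26 CPM in parent labelled prexasertib against 25.1, 23.0 and 23.6 CPM in parent labelled DMSO, a log2 fold change of -2.23 (SE 0.10, edgeR adjusted p = 8.6e-16). HIST1H1A (hg19 chromosome 6, 26017260 to 26018040) had 88, 90 and 62 reads in parent labelled prexasertib against 229, 285 and 226 reads in parent labelled DMSO, a log2 fold change of -1.46 (SE 0.20, edgeR adjusted p = 1.2e-06). The groups did not overlap for either gene.

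Of the H2A genes, HIST2H2AA3 and HIST2H2AA4, a duplicated pair in HIST2 that encodes the same protein, had the lowest fold changes. HIST2H2AA4 (hg19 chromosome 1, 149822643 to 149823191) had 1569.9, 1568 and 1647 CPM in parent labelled prexasertib against 5507, 6213 and 5819 CPM in parent labelled DMSO, a log2 fold change of -1.87 (SE 0.06, edgeR adjusted p = 9.6e-19). HIST2H2AA3 (149813505 to 149814478) differed by -1.89 (SE 0.06), and in both genes each labelled prexasertib library lay far below each labelled DMSO library. Per kilobase of exon, HIST2H2AA4 stood at 4746 CPM per kb over the 12 libraries and HIST2H2AA3 at 2714 CPM per kb, with exon lengths of 549 and 974 bases in the files, so their place among the members' levels depends on the annotated length. HIST1H4K stood at 4673 CPM per kb. HIST2H2AA3 and HIST2H2AA4 share 97.1 to 100% of their 50-base windows, and their read counts stood in ratios of 0.987 to 1.05 in the 12 libraries, so each value describes the pair rather than a gene. At the other end of the class, HIST1H2AH had 584, 628 and 704 CPM in parent labelled prexasertib against 739.6, 822 and 780.3 CPM in parent labelled DMSO, a log2 fold change of -0.29 (SE 0.06, edgeR adjusted p = 0.00051). It was lower in each labelled prexasertib library than in each labelled DMSO library.

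Of the H2B genes, HIST1H2BJ (hg19 chromosome 6, 27093676 to 27100541) had the lowest fold change, with 622, 792 and 807 CPM in parent labelled prexasertib against 2143, 2161 and 2021 CPM in parent labelled DMSO (log2 fold change -1.51, SE 0.12, edgeR adjusted p = 1.1e-06). HIST1H2BB followed at -1.34 (SE 0.06). HIST1H2BI was the least changed coding H2B gene among those called, at 738, 794 and 812 CPM in parent labelled prexasertib against 815, 929.6 and 859.8 CPM in parent labelled DMSO (log2 fold change -0.15, SE 0.06, edgeR adjusted p = 0.038), with groups that stood just apart. It was named after its values were seen. The pseudogene HIST2H2BC, at -0.13, had the highest fold change in the class and was not called.

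Of the H3 genes, HIST1H3H (hg19 chromosome 6, 27777842 to 27778314) had 723, 769.5 and 792 CPM in parent labelled prexasertib against 1765, 2087 and 1924 CPM in parent labelled DMSO, a log2 fold change of -1.34 (SE 0.07, edgeR adjusted p = 1.9e-14). The groups were far apart. HIST1H3D differed by -1.07 (SE 0.06), and 56.7% of its exonic reads lay outside other genes. HIST1H3A, at 132, 147 and 154 CPM in parent labelled prexasertib against 154, 184 and 162 CPM in parent labelled DMSO, differed least (log2 fold change -0.20, SE 0.06, edgeR adjusted p = 0.011), and its groups overlapped. HIST1H3B had the highest level per kilobase in the class and differed by -0.60 (SE 0.06).

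The H4 genes held the widest range. HIST1H4F (hg19 chromosome 6, 26240561 to 26240976) had 7, 8 and 6 reads in parent labelled prexasertib against 139, 141 and 90 reads in parent labelled DMSO, a log2 fold change of -3.92 (SE 0.37, edgeR adjusted p = 3.4e-09). This gene was all but unread outside the parent libraries labelled DMSO, with 1 to 13 reads in each knockout library. Only in parent labelled DMSO did all 3 libraries exceed the filter's minimum count of 10. The gene thus passed the filter through the group where it is high. HIST4H4 (hg19 chromosome 12, 14920933 to 14924065) had 70.1, 77.7 and 83.3 CPM in parent labelled prexasertib against 267, 314 and 295 CPM in parent labelled DMSO, a log2 fold change of -1.92 (SE 0.07, edgeR adjusted p = 2.2e-16). The most abundant H4 genes per kilobase, HIST1H4K and HIST1H4J, were lower in parent labelled prexasertib, by 0.93 and 0.94 on the log2 scale. Since they share 81.2 to 100% of their 50-base windows and have read ratios of 0.994 to 1.01, they cannot be separated. HIST1H4D had the smallest difference among the called H4 genes, at -0.30 (SE 0.05).

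**Figure D3:**
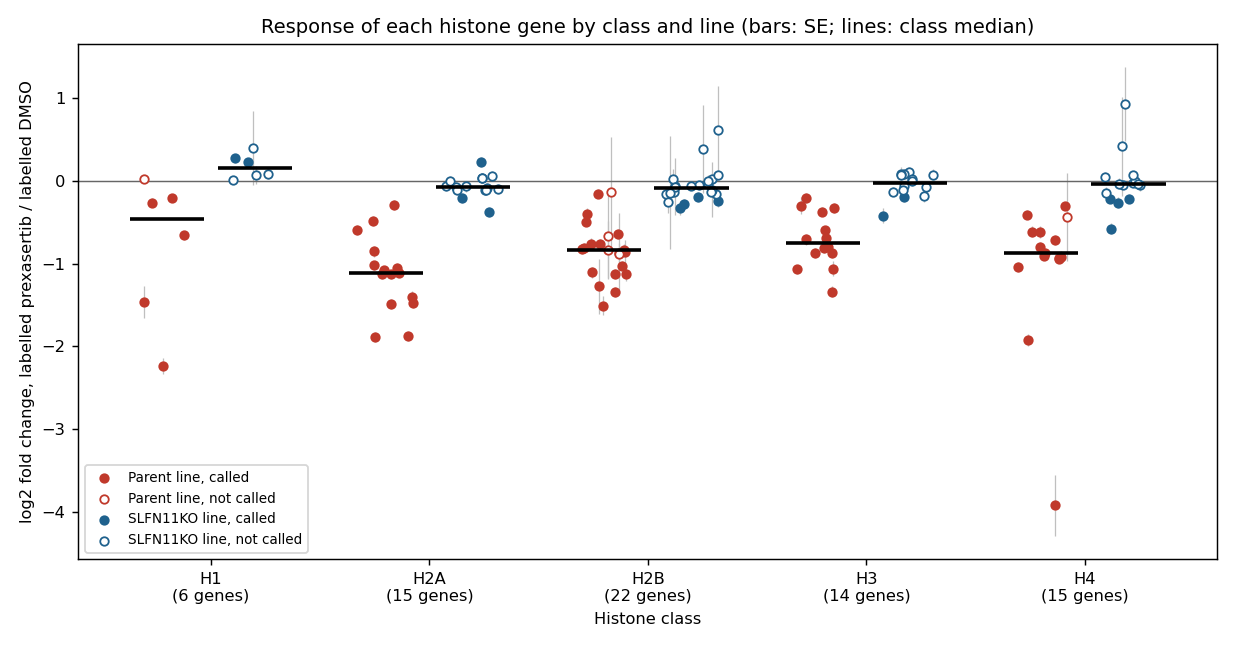
Log2 fold change of labelled prexasertib over labelled DMSO for each of the 72 histone genes by class, parent line in red and knockout line in blue. Filled points passed edgeR's adjusted p of at most 0.05, open points did not, grey bars are SE and black lines class medians. Parent points lie below 0 apart from HIST1H1E, and knockout medians lie between -0.09 and 0.15.

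**Figure D4:**
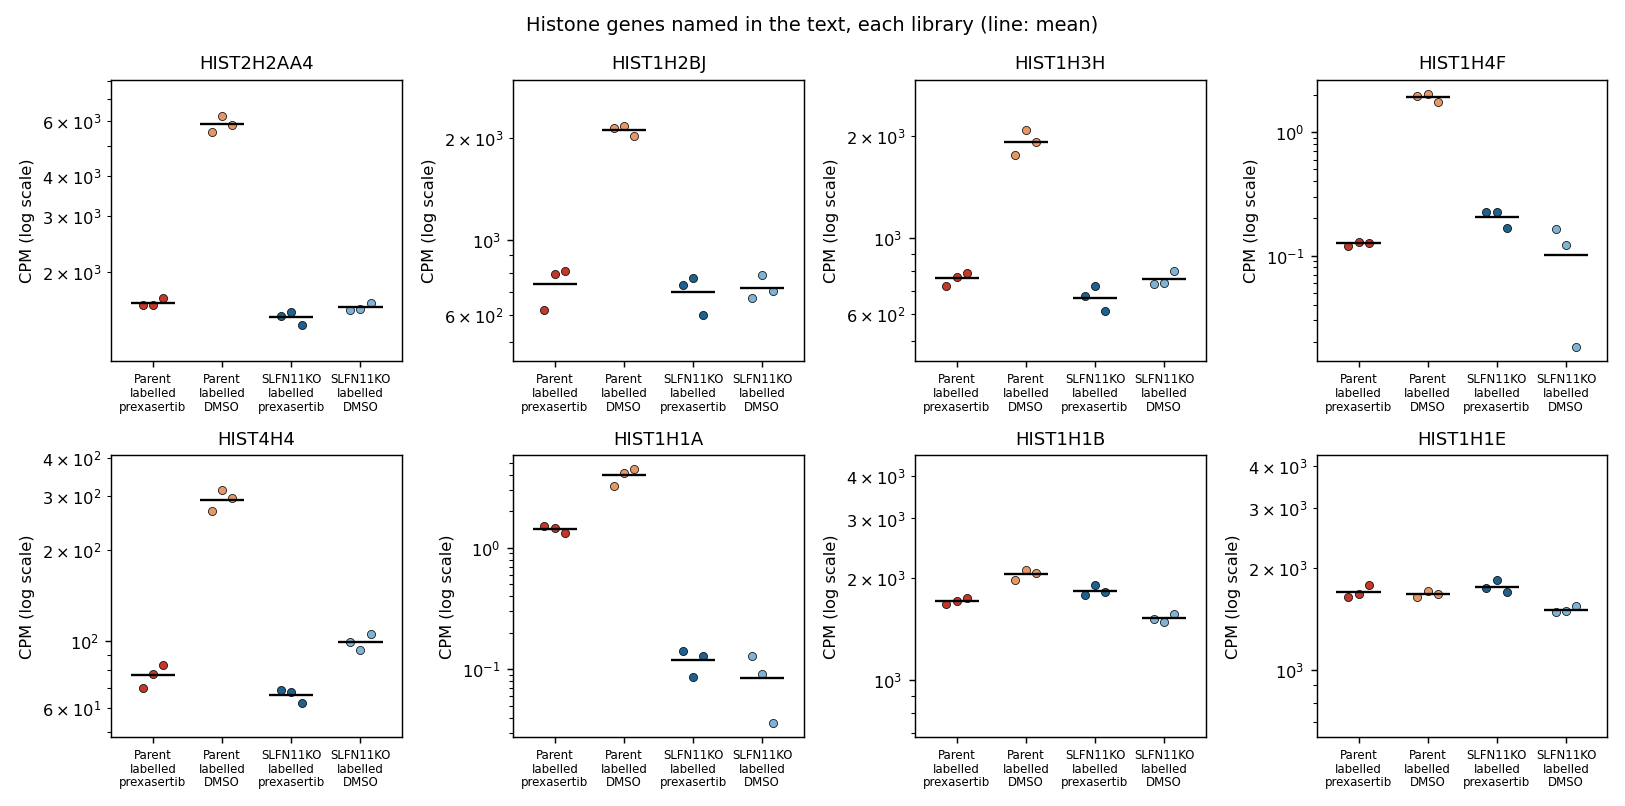
CPM on a log scale of 8 histone genes in the 12 libraries, with lines at the group mean. HIST2H2AA4, HIST1H2BJ, HIST1H3H, HIST1H4F and HIST4H4 stand apart in parent labelled DMSO, HIST1H1A is near 0 in the knockout line, and HIST1H1E differs little among groups.

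Across the clusters, the median log2 fold change in parent cells was -0.88 over HIST1 (51 of 53 lower), -0.66 over HIST2 (14 of 16) and -0.78 over HIST3 (0 of 2, also at an unadjusted p of at most 0.05 and by DESeq2). The HIST3 members, HIST3H2BA and HIST3H2BB, had 6 to 23 reads per library, so their direction was not detectable at this depth. Within HIST2 the median was lowest for H2A, at -1.50 over 4 genes. It was -0.57 over 6 H2B, -0.53 over 4 H3 and -0.62 over 2 H4 genes. The pseudogene HIST2H2BB, at -1.27, lay below HIST2H2AB at -1.13 and HIST2H2AC at -1.07, but its value leaned on 1 library. HIST2H2BB had 225.8, 94.3 and 90.6 CPM in parent labelled DMSO against 58.1, 61.1 and 50.6 CPM in parent labelled prexasertib. Within HIST1 the medians of the core classes were closer together, at -1.05 for H2A, -0.89 for H4, -0.87 for H2B and -0.84 for H3. That of H1, whose members all lie in HIST1, stood apart at -0.46. HIST1 lies on chromosome 6 in 3 stretches (hg19), from HIST1H1A at 26017260 to HIST1H4H at 26285762, from HIST1H2BJ at 27093676 to HIST1H2AH at 27115317 and from HIST1H2BL at 27775257 to HIST1H2BO at 27861669. Their medians were -0.88 over 32 genes, -0.71 over 5 and -0.90 over 16. Large and small fold changes stood side by side, as the plot in gene order shows.

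**Figure D5:**
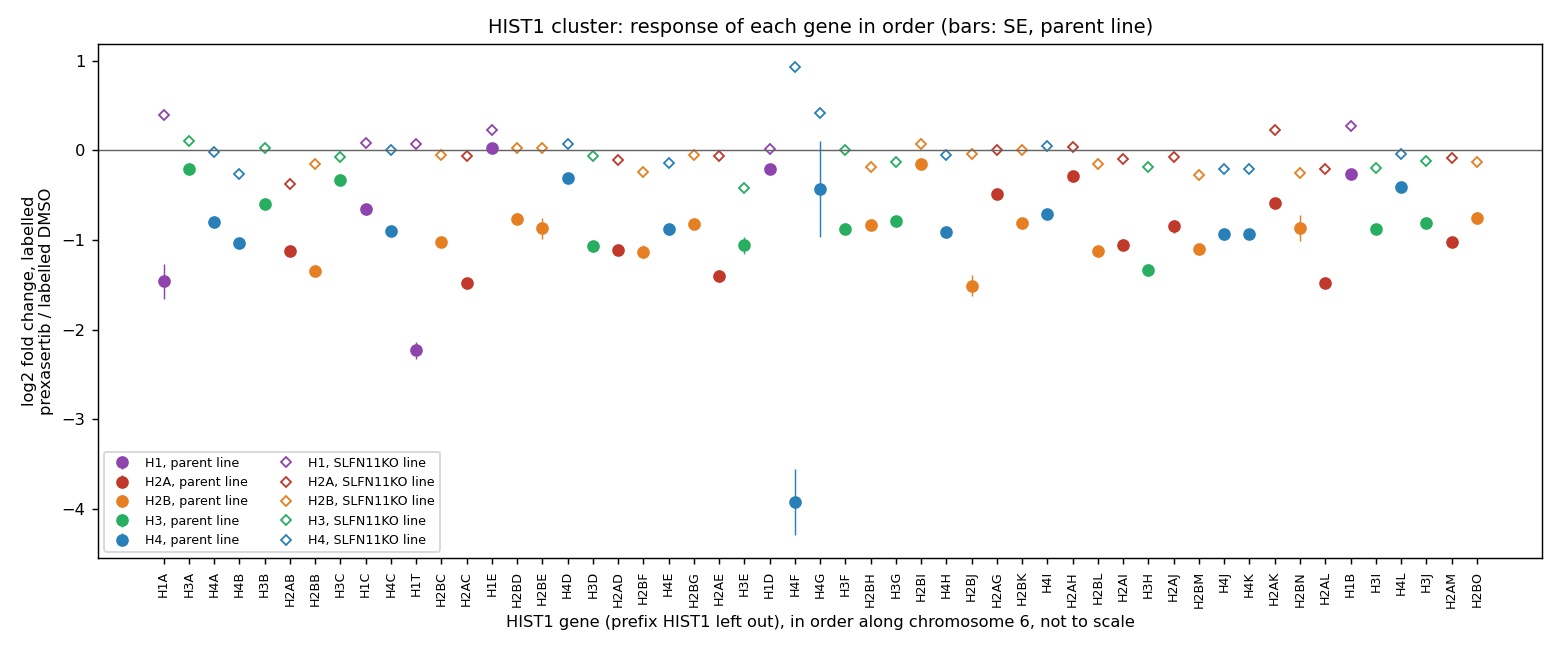
Log2 fold change of labelled prexasertib over labelled DMSO for the 53 HIST1 genes in their order along chromosome 6, coloured by class. Filled circles with SE bars are the parent line, open diamonds the knockout line. Small and large differences alternate along the cluster, and HIST1H4F (-3.92) and HIST1H1T (-2.23) stand lowest in the parent line.

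Many H2A and H2B genes start back to back from 1 intergenic stretch. By gene starts in GENCODE 29 there were 11 such pairs among the members, 9 with both genes coding and with starts 219 to 331 bases apart. HIST1H2AK and HIST1H2BN also start back to back by their RefSeq promoters but are not among the pairs counted here. In these 9 pairs the H2A gene had the lower fold change in 4, and the difference, H2A less H2B, had a median of 0.02 and ran from -0.58 to 1.02. The widest gap was that of HIST1H2AG and HIST1H2BJ, whose promoters overlap in the sequence shown above. HIST1H2AG was named after its values were seen. HIST1H2AG had 1127, 1187 and 1326 CPM in parent labelled prexasertib against 1613, 1749 and 1737 CPM in parent labelled DMSO, a log2 fold change of -0.49 (SE 0.06), while HIST1H2BJ differed by -1.51. For the pairs of HIST2H2AA3 and HIST2H2AA4 the partner is a pseudogene, HIST2H2BD at -0.40 and HIST2H2BC at -0.13. The level of a member did not go with its fold change (Spearman's rho 0.05 over the 72 members, as a description across genes that share reads).

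In knockout cells, most members did not pass in either direction: 12 of 72 were lower and 3 higher in labelled prexasertib (6.83% of all tested genes were lower and 6.11% higher), with a median log2 fold change of -0.055 against 0.00 over all tested genes. The groups did not overlap for 27 members, against 34.3% of all tested genes. The count of lower members was 5 without knockout labelled prexasertib replicate 1, 4 without replicate 3 of that group, and 5 without knockout labelled DMSO replicate 3. It was 19 when only the knockout groups were fitted and 6 with all reads of a gene. The lowest was HIST4H4, at 68.9, 67.7 and 62.6 CPM in knockout labelled prexasertib against 98.8, 93.0 and 105.5 CPM in knockout labelled DMSO (log2 fold change -0.58, SE 0.07, edgeR adjusted p = 1.4e-06). HIST1H3E at -0.42 (SE 0.09) and HIST1H2AB at -0.38 (SE 0.06) followed. HIST4H4 thus differed in the same direction in both lines, and more in parent cells (interaction -1.35, SE 0.09, edgeR adjusted p = 4.6e-10).

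The 3 higher members in knockout cells were HIST1H1B, HIST1H1E and HIST1H2AK. HIST1H1B had 1789, 1916 and 1816 CPM in knockout labelled prexasertib against 1513, 1484 and 1572 CPM in knockout labelled DMSO, a log2 fold change of 0.27 (SE 0.05, edgeR adjusted p = 0.00052). HIST1H1E had 1742, 1838 and 1698 CPM in knockout labelled prexasertib against 1478, 1487 and 1545 CPM in knockout labelled DMSO, a log2 fold change of 0.23 (SE 0.05, edgeR adjusted p = 0.0037). HIST1H2AK differed by 0.23 (SE 0.06, edgeR adjusted p = 0.012). The groups of HIST1H1B and HIST1H1E did not overlap. The H1 share of histone CPM was 12.8 ± 0.27% in knockout labelled prexasertib against 11.1 ± 0.11% in knockout labelled DMSO (SD, n = 3 each), with ranges apart. The class medians in knockout cells were 0.15 for H1, -0.03 for H3, -0.03 for H4, -0.08 for H2A and -0.09 for H2B.

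Knockout and parent libraries labelled DMSO were compared next, with the same parent libraries labelled DMSO as in the parent response, so the comparisons are not independent. Of the 72 members 68 were lower in knockout cells and 0 higher (20.4% of all tested genes were lower and 19.6% higher), with 69 lower and 0 higher at an unadjusted p of at most 0.05 and 68 lower and 0 higher by DESeq2. The median was -0.89, and the groups did not overlap for 69 members, against 53.6% of all tested genes. By limma on the authors' TPM the median was -0.49, with 57 members lower and 2 higher, where 6.02% of all tested genes were lower and 47.1% higher. The 3 called members that differed most were HIST1H1A, HIST1H4F and HIST1H1T. HIST1H1A had 10, 6 and 2 reads in knockout labelled DMSO against 229, 285 and 226 reads in parent labelled DMSO, a log2 fold change of -5.43 (SE 0.28, edgeR adjusted p = 3.1e-14). HIST1H4F differed by -4.14 (SE 0.37) and HIST1H1T by -3.20 (SE 0.10). HIST1H1D, HIST1H1E and HIST1H3A, at -0.14, -0.15 and -0.21, were the named members whose direction turned on the authors' TPM scale, to 0.19, 0.18 and 0.13.

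Under labelled prexasertib histone genes summed to 50877 ± 2412 CPM in knockout against 52678 ± 2627 CPM in parent libraries (SD, n = 3 each), with overlapping ranges. Of the 72 members 16 were lower in knockout cells and 1 higher (13.5% of all tested genes were lower and 14.5% higher), with a median of -0.058 against -0.02 over all tested genes, and the groups did not overlap for 23 members, against 38.1% of all tested genes. The direction depended on the scale: by limma on the authors' TPM 5 were lower and 30 higher, where 4.98% of all tested genes were lower and 26.9% higher, with a median of 0.13 over the members and 0.05 over all tested genes. On that scale the median of all genes between the lines under labelled DMSO was 0.14, against -0.01 by edgeR. The count of lower members was 5 with all reads and 8 when only these groups were fitted. It was 8 without parent labelled prexasertib replicate 2, 7 without its replicate 3, 9 without knockout labelled prexasertib replicate 1 and 7 without its replicate 3. The higher member, HIST1H2BD at 0.18 (SE 0.06), was named after its values were seen. No member was called higher without parent labelled prexasertib replicate 1 or without knockout labelled prexasertib replicate 2 or 3, and 3 were without parent labelled DMSO replicate 1, 2 without its replicate 2 and 2 without parent labelled prexasertib replicate 3.

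A few low members differed strongly between the lines under labelled prexasertib as well. HIST1H1A had 8, 5 and 7 reads in knockout labelled prexasertib against 88, 90 and 62 reads in parent labelled prexasertib (log2 fold change -3.57, SE 0.30, edgeR adjusted p = 6.2e-10). HIST1H1T had 3.15, 2.42 and 2.60 CPM in knockout against 5.17, 4.82 and 5.26 CPM in parent libraries (log2 fold change -0.90, SE 0.11, edgeR adjusted p = 4.4e-07). The pseudogene HIST2H2BD had 13, 15.18 and 13.22 CPM in knockout against 23.8, 20.1 and 22.3 CPM in parent libraries (log2 fold change -0.68, SE 0.08, edgeR adjusted p = 1e-06). For each of the 3, every knockout library lay below every parent library under both labels.

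The interaction, that is the parent response less the knockout response, was called below 0 for 61 of 72 members and above 0 for 0 by edgeR (9.53% of all tested genes were below 0 and 7.32% above 0). At an unadjusted p of at most 0.05 the counts were 67 and 0, and by DESeq2 64 and 0. The median was -0.78, against 0.03 over all tested genes. By class the median was -0.995 for H2A (15 of 15 below 0), -0.80 for H2B (14 of 22), -0.76 for H4 (14 of 15), -0.67 for H3 (13 of 14) and -0.64 for H1 (5 of 6). All 61 calls were among the 66 coding members. The pseudogenes, most of them in the H2B class, were not called. The H1 median was nearer to those of the core classes than in parent cells alone, and stood at 0.15 in the knockout line. HIST1H4F had the lowest value at -4.85 (SE 0.59, edgeR adjusted p = 1.3e-06), then HIST1H1T at -2.31 (SE 0.15) and HIST1H1A at -1.86 (SE 0.50, edgeR adjusted p = 0.0096). The knockout part of the HIST1H4F value rests on few reads. They numbered 13, 13 and 9 in knockout labelled prexasertib against 13, 8 and 1 in knockout labelled DMSO. Reads of HIST1H4F stood higher, at 90 to 141, only in parent labelled DMSO. It passed the count filter through that group, so its p-value is no separate support. HIST1H1E did not pass, at -0.20 (SE 0.07, edgeR adjusted p = 0.057).

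The 4 histone genes that were not read in every library had most of their reads in the parent libraries labelled DMSO. HIST1H2AA, a testis H2A gene, had 0, 1 and 4 reads in parent labelled prexasertib against 67, 89 and 38 reads in parent labelled DMSO, and at most 6 reads in a knockout library. HIST1H2BA, a testis H2B gene, had 0 reads in each parent library labelled prexasertib against 71, 66 and 49 reads in those labelled DMSO, and at most 2 in a knockout library. HIST3H3 had 2, 0 and 1 reads in parent labelled prexasertib against 12, 33 and 2 reads in parent labelled DMSO, and HIST3H2A had 2, 9 and 4 reads in parent labelled prexasertib against 14, 6 and 14 reads in parent labelled DMSO, both with overlapping groups. These genes were left out of the members for their zeros and were not part of any count above.

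Near-identical and overlapping genes can exchange reads. Of the 72 members 30 share no 50-base window with another and 49 share under 10% of windows. Of these 49 members, 45 were lower in parent cells, with a median of -0.87, and 43 had an interaction below 0. HIST1H2AD, HIST1H4I and HIST2H3DP1 had no exonic reads outside other genes. Of exonic reads, 56.7% in HIST1H3D, 21.3% in HIST1H2AM and 39.6% in HIST1H3J lay outside other genes. Shared reads may count for each overlapping gene, so sums and shares of H2A and H3 may hold the same reads. Percentages of exonic reads over all members may do so too. Sums without shared reads were not computed. With reads outside other genes 63 members were lower in parent cells, with a median of -0.85. Among the 66 coding members 63 were lower, with a median of -0.87.

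Other genes of histone supply changed in both directions. In parent cells, 6 of 23 listed genes of histone transcription and 3′ processing were higher and 8 lower, with a median of -0.01, where 18.2% of all tested genes were called in each direction. SLBP, the stem-loop binding protein gene, was higher at 85.2 CPM in parent labelled prexasertib against 60.1 CPM in parent labelled DMSO (log2 fold change 0.50, SE 0.05, edgeR adjusted p = 7.9e-09). NPAT was lower at 59.7 CPM in parent labelled prexasertib against 72.5 CPM in parent labelled DMSO (log2 fold change -0.28, SE 0.05, edgeR adjusted p = 8.5e-05). ZNF473, which encodes a protein of the U7 snRNP-dependent processing machinery, was lower at -0.44 (SE 0.06), and CSTF2T, a cleavage factor gene, at -0.56 (SE 0.06). SLBP was named after its values were seen. It was also higher in knockout cells, at 92.2 CPM in labelled prexasertib against 72.1 CPM in labelled DMSO. There its log2 fold change was 0.35 (SE 0.05, edgeR adjusted p = 1.2e-05). Its interaction did not pass, at 0.15 (SE 0.07, edgeR adjusted p = 0.16). NPAT was higher in knockout cells, at 0.17 (SE 0.05, edgeR adjusted p = 0.030). In knockout cells 4 of the 23 were higher and 1 lower, where 6.11% of all tested genes were higher and 6.83% lower. Of 23 S phase replication genes 15 were higher in parent and 9 in knockout cells, with medians of 0.21 and 0.12, among them PCNA, the sliding clamp gene, at 483 CPM in parent labelled prexasertib against 347 CPM in parent labelled DMSO (log2 fold change 0.48, SE 0.05).

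Histone variant genes, most of which are transcribed outside S phase and carry poly(A) tails, were in part lower in labelled prexasertib. In parent cells 8 of 12 variant genes were lower and 2 higher in labelled prexasertib, with a median of -0.78. H1F0, a linker histone gene of resting cells, had 26.8 CPM in parent labelled prexasertib against 123.5 CPM in parent labelled DMSO (log2 fold change -2.20, SE 0.06), H2AFJ 37.98 CPM in parent labelled prexasertib against 99.6 CPM in parent labelled DMSO (log2 fold change -1.39, SE 0.06), and H1FX 154.5 CPM in parent labelled prexasertib against 324 CPM in parent labelled DMSO (log2 fold change -1.07, SE 0.05). In knockout cells 6 of the 12 were lower, with a median of -0.23. Of 14 histone chaperone genes 5 were higher and 2 lower in parent cells, and 1 was higher and 1 lower in knockout cells. Beside the same shares over all tested genes, the lower count in parent cells and both counts in knockout cells were near the background. HJURP, the chaperone gene of the centromeric histone CENPA, was the lowest at -1.70 (SE 0.05), with 104 CPM in parent labelled prexasertib against 338 CPM in parent labelled DMSO.

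Histone mRNAs that end at the stem-loop lack a poly(A) tail. Annotated transcripts of some members run on past the stem-loop, by 1729 bases in HIST2H2BE, 1510 in HIST4H4 and 35 in HIST2H2AA3. Whether reads came from such longer transcripts was not tested. Whether libraries were made with poly(A) selection is not given in the sources used here. Other RNAs without a poly(A) tail were abundant. Their summed ranges overlapped between the treatments but not between the lines. The 17 listed ones summed to 120023 to 133260 CPM in parent labelled prexasertib against 122665 to 134838 CPM in parent labelled DMSO, and to 99271 to 105817 CPM in knockout labelled prexasertib against 101330 to 108661 CPM in knockout labelled DMSO. Of the 16 tested, 2 were lower in parent cells and 1 in knockout cells, with medians of -0.02 and -0.01. Of all tested genes 18.2% and 6.83% were lower. Between the lines under labelled DMSO, 4 were lower in knockout cells and 3 higher (20.4% and 19.6% of all tested genes), with RN7SL1 at -0.64 and RN7SK at 0.23. RN7SK, RN7SL1 and RN7SL2 made up most of the sums, at means of 27264, 39961 and 49766 CPM in parent labelled prexasertib. Their part in the differences between lines was not tested.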

How the data were processed

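The submitters' processing notes name Trim Galore 0.6.2, Trimmomatic 0.39, STAR 2.5.4a, Picard 2.9.2 and the build hg19, without roles. Total RNA was sequenced in paired-end reads, per the labels. The names of the deposited files hold the word dedup, and no source used here says how duplicate reads were treated, so short abundant genes may have lost reads. RNA selection, strand and the counting tool are not given in the sources used here. The files deposited by the authors give, per gene, counts of all, exonic, intronic and uniquely exonic reads, and TPM values computed by the authors.

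From the exonic read counts, 23045 of 44147 genes passed edgeR's filterByExpr (minimum count 10) and were fitted with TMM scaling and the quasi-likelihood test over all 12 libraries, 1 mean per group, with Benjamini-Hochberg adjustment (R 4.3.3, edgeR 4.0.16). An SE is the fold change divided by the root of F. Depth and precision come from 47887791 to 77548202 exonic reads per library. The same code was tested on simulated data. Alternatives used DESeq2 1.42.0 and limma 3.58.1 on log2(TPM + 1). Files were taken by the record they are attached to. Replicate numbers did not pair libraries: of 18 same-number pairs 1 correlated above 0.1.

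The members and lists were chosen with earlier results of these data known. Named were every H1 member, the extremes of level and fold change in each core class, the HIST2, HIST3 and HIST4 members, called higher members, the 3 called members with the largest change in each other comparison and 3 genes per other list by interaction p. Genes named outside the rule are marked as such.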

Additional observations from a re-analysis of the deposited data

Results flagged for a closer look

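The response to treatment differed between the lines, by the test of the difference itself (parent less knockout, edgeR), for 61 of 72 histone genes, all with a lower value in the parent line. Over all tested genes 9.53% were below 0 and 7.32% above 0. The 61 values rest on the same parent libraries labelled DMSO, where summed histone levels were highest. The value was -4.85 for HIST1H4F, -2.31 for HIST1H1T and -1.86 for HIST1H1A. HIST1H4F and HIST1H1A were sparsely read in the knockout line, with at most 13 and at most 10 reads per library. HIST1H4F passed the count filter only through parent labelled DMSO, the group where it is high, so its call is no separate support. HIST1H1T had at least 139 reads in every library.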

How the results depend on the processing

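Taking files by the library names in the titles, by construction, turned the treatment comparisons round and exchanged those of the lines. The members' median was then 0.86 in parent cells, 0.78 for the interaction, 0.055 in knockout cells, -0.058 between lines under DMSO and -0.89 under prexasertib. In the same order 66, 61, 12, 1 and 0 were higher and 0, 0, 3, 16 and 68 lower.

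By limma on the authors' log2(TPM + 1), the members' median was -0.68 in parent cells, -0.62 for the interaction, -0.49 between lines under labelled DMSO and 0.13 under labelled prexasertib, with 1 member higher in parent cells, 2 and 30 higher between the lines, and 5 lower under labelled prexasertib. On that scale the parent and interaction medians were -0.31 and -0.50 for H1, -0.95 and -0.86 for H2A, -0.66 and -0.62 for H2B, -0.59 and -0.53 for H3, -0.72 and -0.60 for H4, -0.72 and -0.64 for HIST1, -0.51 and -0.52 for HIST2, and -0.23 and -0.39 for HIST3, and the knockout median of H1 was 0.091. Single members that changed sign were HIST1H1D (0.19), HIST1H1E (0.18) and HIST1H3A (0.13) under labelled DMSO, and HIST1H3H (0.0054) and HIST2H2AA4 (0.041) under labelled prexasertib. The cause was not tested.

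With all reads of a gene, H1 had medians of -0.54 in parent cells and -0.72 for the interaction, H2A -1.07 for the interaction, 6 members were lower in knockout cells and 5 between lines under labelled prexasertib. With only the groups compared, these counts were 19 and 8 and the knockout median of H1 was 0.083.

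Leaving out 1 library at a time gave medians of -0.95 to -0.84 in parent cells and -0.88 to -0.76 for the interaction over all members. The medians of H1 were -0.53 to -0.44 in parent cells, 0.10 to 0.18 in knockout cells and -0.70 to -0.62 for the interaction, and that of HIST1 was -0.88 to -0.76 for the interaction. Lower members numbered 4 to 14 in knockout cells and 7 to 20 between lines under labelled prexasertib, where 0 to 3 were higher. With the replicate block, 66 members were lower in parent cells, 13 in knockout cells, 68 and 16 between the lines and 63 below 0 for the interaction. Replicate numbers did not pair the libraries, and 15 of 36 best matches were to the same number. DESeq2, its size factors, other filters and reads outside other genes left the counts over all members within 1.5 times. So did taking coding members or members with under 10% shared windows (both chosen after seeing the data). Their counts come from smaller sets, of 66 and 49 members. Counts within clusters could move more. In HIST2, between lines under labelled prexasertib, 2 members were lower by edgeR and 4 by DESeq2. Depth limits HIST3 members, HIST1H4G and HIST1H4F outside parent labelled DMSO, at 1 to 25 reads.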
